A study of Homo sapiens with 12 samples.

Results

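Secreted and membrane proteins enter the endoplasmic reticulum through a channel, lose their signal peptide, fold with the help of chaperones and disulfide isomerases, and are returned to the cytosol for degradation when folding fails. The 36 genes described here encode this machinery and the sensors that adjust it. They were taken by symbol from a fixed list and not by their values, though earlier results of these data were known when the list was chosen. All 36 were found among the 57820 genes of the deposited table, and all 36 were among the 23128 genes tested, those with a mean value of at least 10. By role they are 4 sensors and transcription factors, 7 chaperones of the HSP70 and HSP90 classes with their co-chaperones, 6 lectin chaperones and disulfide isomerases, 2 secreted stress-regulated proteins, 7 subunits of the SEC61 channel and the associated TRAP complex, 3 subunits of signal peptidase and 7 factors of endoplasmic-reticulum-associated degradation (ERAD).

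RNA sequencing was read from HL60, an established human acute myeloid leukaemia line that resembles promyelocytes. The cells had been transduced with pRRL-EV-puro, an empty vector (EV), or with pRRL-TFEBS211A-puro, from which doxycycline induces TFEB S211A. TFEB is a transcription factor of lysosomal and autophagy genes, and the S211A substitution removes a phosphorylation site through which the protein is held in the cytoplasm. The 4 groups were EV with vehicle, EV with doxycycline, TFEB with vehicle and TFEB with doxycycline, each with 3 biologically independent experiments according to the series description. Doxycycline was used at 1 µg/ml for 48 h, and the labels do not say whether either line was a clone or a pool. The vehicle groups carried the same vectors as their doxycycline groups, so the drug acted with the transgene in the TFEB line and without it in the EV line.

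The load of unfolded protein in this compartment is read by the unfolded protein response. ERN1 (IRE1) splices XBP1 mRNA so that it encodes an active transcription factor, ATF6 is released by proteolysis to act as one, and EIF2AK3 (PERK) phosphorylates an initiation factor, which slows translation and favours ATF4. Chaperones such as HSPA5 (BiP), isomerases and ERAD factors are known targets of ATF6 and XBP1. Myeloid precursors make large amounts of granule proteins that pass through this compartment. Only gene-level values were read, so XBP1 splicing, ATF6 cleavage and kinase activity were not measured.

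The libraries held 4474007 to 22488047 reads, and the lowest number of reads for any of the 36 genes in any library was 27. Expressed nuclear genes did not sit at one level on the deposited scale. Their median ratio to the average library was lowest, 0.313, for replicate 3 of EV doxycycline and highest, 2.21, for replicate 2 of EV vehicle, and their median log2 change was -1.29 in EV doxycycline against EV vehicle and 0.73 in TFEB doxycycline against TFEB vehicle. Values below are therefore given as scaled reads, the deposited value divided by that ratio, and log2 changes are on the log2(value + 1) scale. A gene is said to have risen or fallen where limma called it in the same direction (Benjamini-Hochberg adjusted p below 0.05 over all tested genes) under each of 5 scalings of the libraries, the deposited one included. TFEB itself lay between 88.8 and 255 scaled reads in the 9 control libraries and at 13614, 12450 and 10663 in TFEB doxycycline, as labelled. No gene in the EV line checks which of its libraries received the drug.

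In the EV line, doxycycline went with a smaller output of the whole module. The 36 genes took 1.25, 1.31 and 1.30% of nuclear-gene reads in EV vehicle and 0.803, 0.762 and 0.586% in EV doxycycline. In the TFEB line they took 1.11, 1.27 and 1.23% with vehicle and 1.08, 1.21 and 1.21% with doxycycline. The EV doxycycline libraries lay below all 9 others. TFEB vehicle overlapped both EV vehicle and TFEB doxycycline, and TFEB doxycycline lay below EV vehicle without overlap. The group means were 1.29 ± 0.032%, 0.717 ± 0.115%, 1.21 ± 0.083% and 1.17 ± 0.077% (SD, n = 3 each). Without P4HB, CALR and CANX, which supply many of these reads, the means were 0.706, 0.436, 0.656 and 0.648%.

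**Figure D1:**
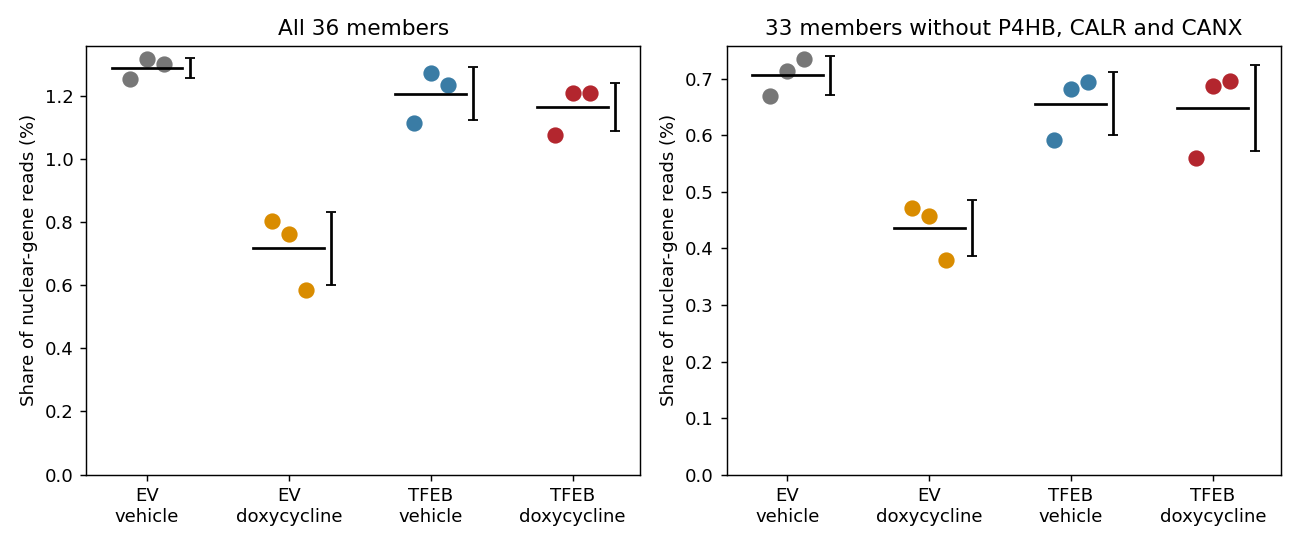
Share of nuclear-gene reads (%) in the 36 genes (left) and in 33 of them without P4HB, CALR and CANX (right), 1 point per library, with the group mean as a line and the SD as a bar (n = 3). The 3 EV doxycycline libraries, at 0.586 to 0.803% in the left panel, sit below the other 9, which lie between 1.08 and 1.31%.

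Against EV vehicle, 23 of the 36 genes fell in EV doxycycline and 0 rose. By the same rule 5.75% of tested genes fell and 3.39% rose, and of the 7290 expressed nuclear genes, whose mean was 200 or more, 17.5% fell and 0.37% rose. The members that fell included CALR, P4HB, HSPA5, HYOU1, SSR3 and DERL3. On the deposited scale 35 members were called lower, all but EIF2AK3, where 23.3% of tested and 51.2% of expressed genes were lower. With libraries scaled on expressed genes the 23 were called lower and 0 higher, against 5.75% lower and 44.1% higher of tested genes and 17.5% lower and 20.9% higher of expressed genes. The median change of the 36 was -0.58 on that scale and -1.87 on the deposited one.

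The EV result leaned on EV vehicle replicate 2, the deepest library. Without it 15 members were called lower with libraries scaled on expressed genes and 2 on the deposited scale. Without EV doxycycline replicate 3, the shallowest, the counts were 17 and 16. Of the 23, the calls of 15 genes held with each of the 12 libraries left out in turn on the expressed-gene scale. EDEM1, SSR2, SEC61A1, SSR4, HERPUD1, SEL1L, DNAJC3 and SDF2L1 did not hold in every case.

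In the TFEB line doxycycline went with changes in both directions. ATF6, HSPA5, DNAJB9, DNAJC3, SEC61B, SEC61G, SPCS2 and DERL1 rose against TFEB vehicle, and DERL3 fell. That is 8 higher and 1 lower of 36, where 12.6% of tested genes rose and 4.42% fell under each scaling. Among expressed genes the shares were 29.2% and 3.51%, so the number that rose did not stand above the background of genes at this level. The log2 changes of the 36 ran from 2.11 for SEC61G to -2.68 for DERL3 with libraries scaled on expressed genes.

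On the deposited scale 9 were called higher (17.4% of tested and 31.5% of expressed genes) and 1 lower (4.66% and 3.51%). The ninth was DNAJB11. With libraries scaled on expressed genes 13 were called higher (14.4% and 34.4%) and 5 lower (20.7% and 33.2%). Those 13 added P4HB, SEC61A1, SSR3 and SEL1L to the 9, and those 5 were DERL3, CRELD2, PDIA4, MANF and PDIA3. The median change was 1.04 on the deposited scale and 0.29 on the expressed-gene scale. For 12 of the 36 the sign of this change differed between the deposited scale and at least 1 of the other scalings; of these, MANF and PDIA3 were called under some scaling. On the deposited scale, leaving out TFEB vehicle replicate 1 or TFEB doxycycline replicate 2 left 3 genes called higher, leaving out TFEB doxycycline replicate 3 left 5, and leaving out EV doxycycline replicate 3 gave 16. On the expressed-gene scale the calls of DNAJB9, SEC61B, SEC61G, HSPA5, ATF6, DNAJC3, SPCS2, DERL1, P4HB, SEL1L, PDIA4, CRELD2 and DERL3 held with each library left out.

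**Figure D2:**
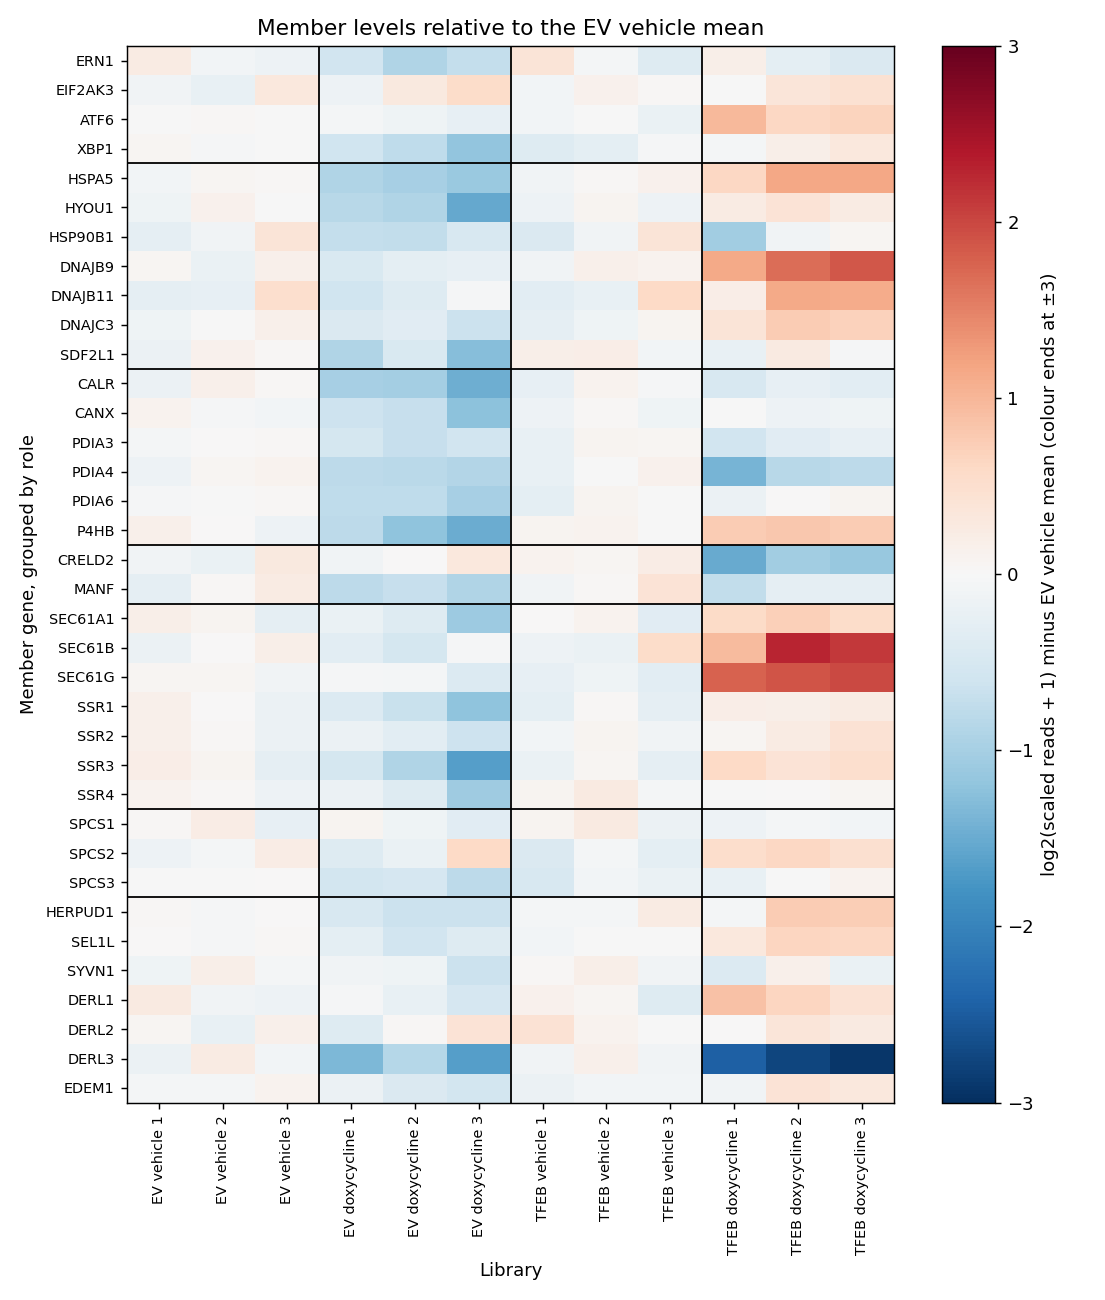
Colour map of log2(scaled reads + 1) of each of the 36 genes (rows, grouped by role) in each of the 12 libraries (columns), minus the EV vehicle mean, with colours ending at ±3. The EV doxycycline columns are mostly blue, while the TFEB doxycycline columns hold the deepest red cells, SEC61B and SEC61G, and the deepest blue ones, DERL3.

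Sequence upstream of the genes was read from RefSeq promoters of GRCh38.p14, 300 bases each (250 before to 50 after the start), for the 32 members with an entry. DERL1, DERL3, PDIA3 and SPCS1 had none. The element through which ATF6, with the CCAAT-binding factor NF-Y, acts on chaperone genes is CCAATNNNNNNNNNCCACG, searched on both strands with N for any base. It was present in 6 of the 32 (18.8%), namely HSPA5, XBP1, CALR, CANX, HSP90B1 and CRELD2, and in 0.0806% of all 27305 promoters. The list holds chaperones already known as targets of ATF6, so the higher share describes the choice of genes and is not a result of these data. The 7 copies follow because genes that share them gave different values. Each is written 5′ to 3′ along the strand that carries CCAAT, with the fixed letters in capitals, and its position is on GRCh38.p14.
HSPA5, chr9:125241391-125241409, minus strand: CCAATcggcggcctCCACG
XBP1, chr22:28800603-28800621, minus strand: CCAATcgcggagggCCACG
CALR, chr19:12938384-12938402, minus strand: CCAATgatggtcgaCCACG
CANX, chr5:179698778-179698796, plus strand: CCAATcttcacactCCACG
HSP90B1, chr12:103930216-103930234, plus strand: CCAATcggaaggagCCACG
HSP90B1, chr12:103930321-103930339, minus strand: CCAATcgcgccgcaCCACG
CRELD2, chr22:49918554-49918572, minus strand: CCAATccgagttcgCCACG

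These 6 genes did not move together in the TFEB line. With libraries scaled on expressed genes, HSPA5 changed by 0.96 and was called higher, CRELD2 changed by -1.36 and was called lower, and XBP1 (0.39), CANX (-0.03), CALR (-0.29) and HSP90B1 (-0.31) were not called. In the EV line, HSPA5, XBP1, CALR and CANX fell under each scaling, while CRELD2 (0.07) and HSP90B1 (-0.64) were not called on that scale.

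The TFEB family binds CACGTG, and its preferred form TCACGTG is part of the motif of lysosomal genes. CACGTG was present in 5 of the 32 promoters (15.6%), DNAJB9, HERPUD1, HSP90B1, SSR1 and SSR3, and in 7.44% of all promoters. TCACGTG, which contains it, was found in DNAJB9, SSR1 and SSR3, 9.38% against 3.82%. The XBP1 motif TGACGTGG was found in HYOU1 alone, against 0.795% of all promoters. Of the 5 genes with CACGTG, DNAJB9 rose in the TFEB line. SSR3 was called higher there with libraries scaled on expressed genes and not on the deposited scale. HERPUD1, HSP90B1 and SSR1 were not called on either of these scales. A match describes letters and not a bound site, and no match, as for SEC61B and SEC61G, says only that these letters are not in this window. Other forms of these elements were not searched in any member.

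The 250 bases before the start are shown for 3 genes that bear on this contrast, with the letters of the matched motif in capitals (both CACGTG copies in DNAJB9, and in CRELD2 the element as it reads on the gene's own strand).
HSPA5, chr9:125241344-125241593, minus strand: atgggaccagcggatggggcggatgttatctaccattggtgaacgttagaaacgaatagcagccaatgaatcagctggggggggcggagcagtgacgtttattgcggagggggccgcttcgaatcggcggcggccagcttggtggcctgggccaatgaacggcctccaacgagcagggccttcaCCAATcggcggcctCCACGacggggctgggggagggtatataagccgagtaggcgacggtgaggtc
DNAJB9, chr7:108569624-108569873, plus strand: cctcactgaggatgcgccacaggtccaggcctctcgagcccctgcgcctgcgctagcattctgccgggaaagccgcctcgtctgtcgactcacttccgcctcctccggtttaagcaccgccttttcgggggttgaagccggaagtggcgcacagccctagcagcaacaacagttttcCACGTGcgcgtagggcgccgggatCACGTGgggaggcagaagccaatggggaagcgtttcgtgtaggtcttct
CRELD2, chr22:49918384-49918633, plus strand: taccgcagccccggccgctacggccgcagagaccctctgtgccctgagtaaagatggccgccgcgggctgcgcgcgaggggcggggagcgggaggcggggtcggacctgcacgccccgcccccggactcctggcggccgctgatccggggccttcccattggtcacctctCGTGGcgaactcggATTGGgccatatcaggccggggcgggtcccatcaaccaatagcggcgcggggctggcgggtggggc

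Among the sensors, ATF6 rose in the TFEB line and XBP1 and ERN1 fell in the EV line. ATF6 stood at 937, 969 and 940 scaled reads in EV vehicle, 907, 868 and 800 in EV doxycycline, 899, 937 and 830 in TFEB vehicle, and 1874, 1463 and 1509 in TFEB doxycycline. The TFEB doxycycline libraries were above all others, with the highest value in replicate 1. The log2 change against TFEB vehicle was 0.85 (SE 0.12, adjusted p = 2.02e-05) on the expressed-gene scale and 1.60 (SE 0.53, adjusted p = 0.0225) on the deposited scale. In the EV line the change was -0.15 (SE 0.12, adjusted p = 0.294) on the first of these scales and -1.43 (adjusted p = 0.041) on the second.

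XBP1 stood at 1791, 1686 and 1697 scaled reads in EV vehicle, 1134, 1022 and 760 in EV doxycycline, 1319, 1400 and 1676 in TFEB vehicle, and 1662, 1943 and 2158 in TFEB doxycycline. EV doxycycline lay below every other library, and the 2 TFEB groups overlapped. The fall in the EV line was -0.85 (SE 0.15, adjusted p = 0.00172), and the change in the TFEB line, 0.39 (SE 0.15, adjusted p = 0.0552), was not called, both on the expressed-gene scale. ERN1 fell by 0.73 (SE 0.19) in the EV line and changed by -0.17 in the TFEB line. EIF2AK3 changed by 0.23 and 0.24 (SE 0.20 each), and neither was called.

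Of the 7 chaperones of the HSP70 and HSP90 classes, 4 fell in EV doxycycline (HSPA5, HYOU1, SDF2L1 and DNAJC3), where 17.5% of expressed genes fell. In TFEB doxycycline 3 of 7 rose (DNAJB9, HSPA5 and DNAJC3), where 29.2% of expressed genes rose, so HSPA5 and DNAJC3 were called in opposite directions in the lines. HSPA5, the main HSP70 of the compartment, which also holds the sensors inactive, stood at 5829, 6402 and 6291 scaled reads in EV vehicle, 3274, 3078 and 2836 in EV doxycycline, 5759, 6332 and 6763 in TFEB vehicle, and 9519, 13884 and 13685 in TFEB doxycycline. The vehicle groups overlapped, EV doxycycline lay below them and TFEB doxycycline above them, with its replicate 1 lowest. The log2 change was 0.96 (SE 0.16, adjusted p = 0.000112) in the TFEB line and -1.01 (SE 0.16, adjusted p = 0.000635) in the EV line on the expressed-gene scale. On the deposited scale the TFEB change was 1.71 (SE 0.59, adjusted p = 0.0303), and its call was lost without any of 4 libraries of the TFEB line (vehicle replicates 1 and 2, doxycycline replicates 2 and 3), where the highest adjusted p was 0.169.

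DNAJB9 (ERdj4), a co-chaperone that brings HSPA5 to ERN1 and to misfolded clients, stood at 149, 124 and 157 scaled reads in EV vehicle, 104, 115 and 120 in EV doxycycline, 133, 159 and 154 in TFEB vehicle, and 314, 456 and 523 in TFEB doxycycline. All 3 TFEB doxycycline libraries were above the other 9. The rise was 1.50 (SE 0.20, adjusted p = 1.33e-05), and the call held on both scales with each library left out. The EV change was -0.33 (SE 0.20, adjusted p = 0.158).

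DNAJC3 (p58IPK), a co-chaperone of HSPA5, stood at 698, 749 and 840 scaled reads in EV vehicle, 561, 597 and 487 in EV doxycycline, 635, 694 and 799 in TFEB vehicle, and 994, 1290 and 1228 in TFEB doxycycline. As for HSPA5, EV doxycycline lay below both vehicle groups and TFEB doxycycline above them. The steps were smaller, 0.72 (SE 0.14, adjusted p = 0.000506) in the TFEB line and -0.48 (SE 0.14, adjusted p = 0.0191) in the EV line. DNAJB11 changed by 0.78 (SE 0.28, adjusted p = 0.0381) in the TFEB line, with groups that overlapped. HYOU1, a nucleotide exchange factor for HSPA5, fell by 1.09 (SE 0.17) in the EV line and changed by 0.38 (SE 0.17, adjusted p = 0.0826) in the TFEB line. HSP90B1 (GRP94) changed by -0.64 (SE 0.26, adjusted p = 0.0527) and -0.31 (SE 0.26, adjusted p = 0.322), and SDF2L1 fell by 0.88 (SE 0.22) in the EV line and changed by -0.09 in the TFEB line.

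**Figure D3:**
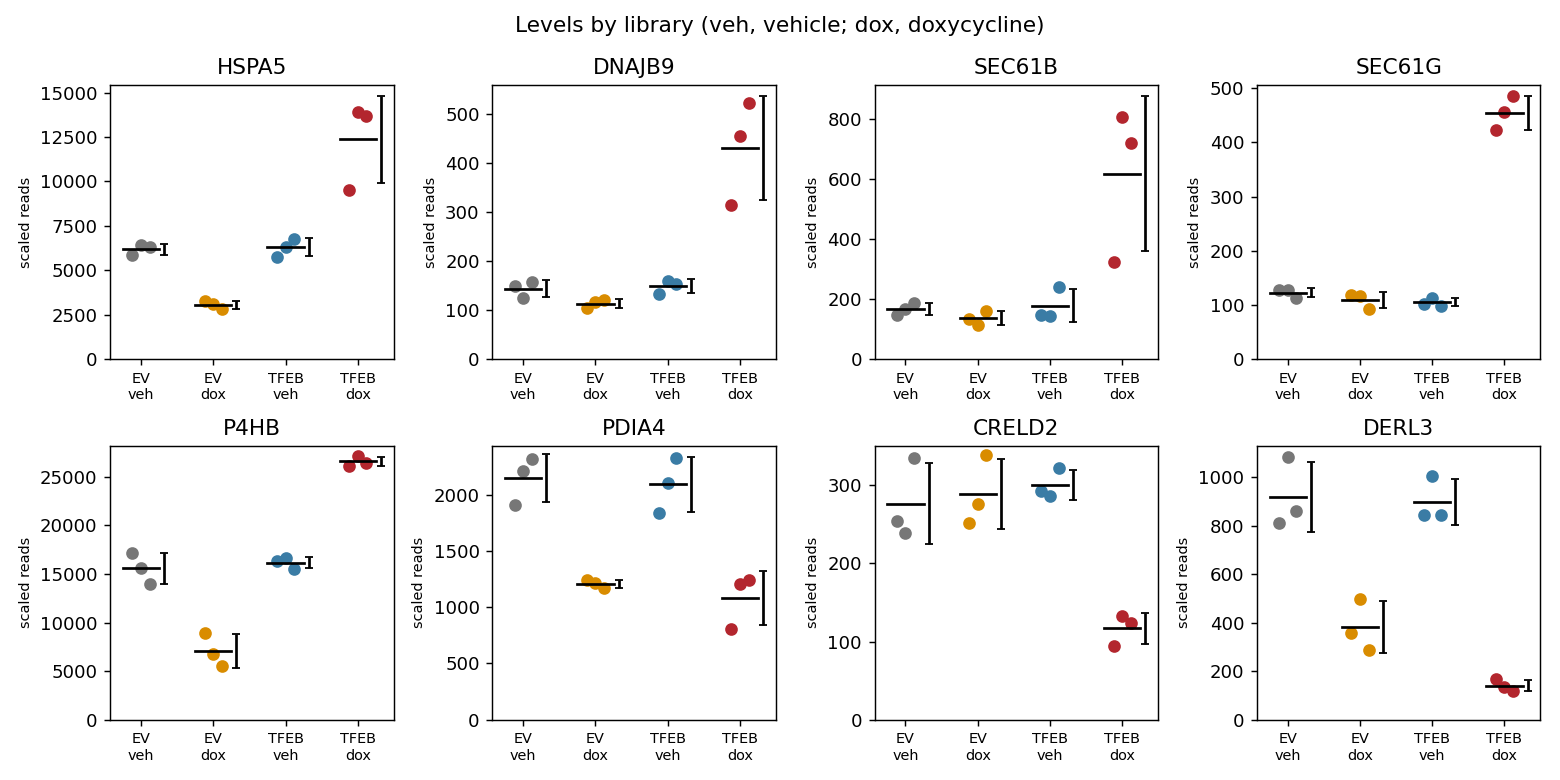
Scaled reads of 8 genes by library, 1 point per library, with the group mean as a line and the SD as a bar (n = 3); each axis starts at 0. HSPA5, DNAJB9, SEC61B, SEC61G and P4HB are highest in TFEB doxycycline, while CRELD2 and DERL3 are lowest there.

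The lectin chaperones and disulfide isomerases were the group in which 6 of 6 fell in EV doxycycline, where 17.5% of expressed genes fell. In TFEB doxycycline 0 of 6 rose or fell under each scaling. P4HB, a protein disulfide isomerase that is also a subunit of collagen prolyl hydroxylase, stood at 17186, 15624 and 13986 scaled reads in EV vehicle, 8960, 6728 and 5508 in EV doxycycline, 16328, 16626 and 15496 in TFEB vehicle, and 26149, 27104 and 26450 in TFEB doxycycline. The doxycycline groups lay on opposite sides of the vehicle groups. The EV change was -1.17 (SE 0.19, adjusted p = 0.00103). The TFEB change of 0.72 (SE 0.19) was called on the expressed-gene scale (adjusted p = 0.00724) and not on the deposited one (1.47, SE 0.59, adjusted p = 0.0702).

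CALR, a soluble lectin chaperone of glycoproteins, stood at 14314, 17708 and 16332 scaled reads in EV vehicle, 8065, 7912 and 5778 in EV doxycycline, 13517, 17185 and 15597 in TFEB vehicle, and 11485, 13554 and 12808 in TFEB doxycycline. EV doxycycline was lowest without overlap, and 1 TFEB doxycycline library reached the range of TFEB vehicle. The changes were -1.16 (SE 0.18, adjusted p = 0.000719) in the EV line and -0.29 (SE 0.18, adjusted p = 0.206) in the TFEB line. CANX, its membrane-bound relative, changed by -0.85 and -0.03 (SE 0.18 each), and PDIA6 by -0.85 and 0.04 (SE 0.13 each).

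PDIA4 and PDIA3 were low with doxycycline in both lines on the expressed-gene scale. PDIA4, an isomerase with several thioredoxin domains, ranged over 1839 to 2326 scaled reads in the vehicle libraries, 1167 to 1238 in EV doxycycline and 808 to 1241 in TFEB doxycycline. The doxycycline groups overlapped each other and lay below the vehicle groups. The changes were -0.83 (SE 0.15, adjusted p = 0.00233) in the EV line and -0.97 (SE 0.15, adjusted p = 8.61e-05) in the TFEB line on the expressed-gene scale. On the deposited scale the TFEB change of PDIA4 was -0.22 (adjusted p = 0.823). PDIA3 changed by -0.60 and -0.37 (SE 0.13 each) on the expressed-gene scale and by 0.39 (SE 0.58) in the TFEB line on the deposited one.

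CRELD2 and MANF, secreted proteins that are known outputs of the unfolded protein response, were lower in TFEB doxycycline on the expressed-gene scale. CRELD2 stood at 254, 239 and 335 scaled reads in EV vehicle, 252, 275 and 338 in EV doxycycline, 292, 286 and 321 in TFEB vehicle, and 94.7, 133 and 123 in TFEB doxycycline. The 3 control groups overlapped, and TFEB doxycycline lay below all of them. The change was -1.36 (SE 0.18, adjusted p = 1.54e-05) on that scale and -0.62 (SE 0.42, adjusted p = 0.324) on the deposited one, where it was not called. In the EV line it was 0.07 (SE 0.18, adjusted p = 0.758).

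MANF stood at 800, 992 and 1154 scaled reads in EV vehicle, 562, 597 and 519 in EV doxycycline, 902, 999 and 1292 in TFEB vehicle, and 581, 799 and 811 in TFEB doxycycline. It fell in the EV line (-0.80, SE 0.17, adjusted p = 0.00546). The TFEB change was -0.54 (SE 0.17, adjusted p = 0.0197) on the expressed-gene scale and 0.21 (SE 0.53, adjusted p = 0.82) on the deposited one, so its direction there depended on the scaling.

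The channel itself held the largest rises among the 36 genes in the TFEB line. SEC61G and SEC61B, the small subunits of the SEC61 channel, rose in the TFEB line, and 5 of the 7 genes of this group fell in the EV line, namely SEC61A1, SSR1, SSR2, SSR3 and SSR4. Of expressed genes 29.2% rose in the TFEB line and 17.5% fell in the EV line. SEC61G stood at 128, 127 and 113 scaled reads in EV vehicle, 119, 117 and 91.8 in EV doxycycline, 102, 113 and 98.2 in TFEB vehicle, and 422, 455 and 486 in TFEB doxycycline. TFEB vehicle lay just below EV vehicle, EV doxycycline overlapped both, and the TFEB doxycycline libraries were above the other 9. The rise against TFEB vehicle was 2.11 (SE 0.18, adjusted p = 7.15e-08) on the expressed-gene scale and 2.86 (SE 0.42, adjusted p = 6.44e-07) on the deposited one, and it held with each library left out.

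SEC61B stood at 146, 167 and 186 scaled reads in EV vehicle, 132, 114 and 161 in EV doxycycline, 148, 143 and 241 in TFEB vehicle, and 323, 806 and 720 in TFEB doxycycline. TFEB doxycycline was above all controls, but its replicate 1 lay well below its other replicates. The rise was 1.73 (SE 0.29, adjusted p = 0.000156). SEC61A1, the pore-forming subunit, changed by 0.69 (SE 0.19, adjusted p = 0.0102 on the expressed-gene scale and 0.0718 on the deposited one), and its call was lost on the former scale without TFEB vehicle replicate 3.

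The 4 TRAP subunits, which assist the channel with some signal peptides, changed less. In the TFEB line SSR3 changed by 0.64 (SE 0.21), called on the expressed-gene scale and not on the deposited one. The changes were 0.37 for SSR1, 0.27 for SSR2 and -0.07 for SSR4, none called on either of these scales. In the EV line the falls ran from -0.38 for SSR2 to -1.03 for SSR3.

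Signal peptidase was split as well. SPCS2, an accessory subunit, stood at 296, 314 and 382 scaled reads in EV vehicle, 250, 286 and 502 in EV doxycycline, 243, 314 and 267 in TFEB vehicle, and 472, 507 and 460 in TFEB doxycycline. The single high EV value, 502 in replicate 3, reached the level of TFEB doxycycline. Against TFEB vehicle SPCS2 rose by 0.81 (SE 0.21, adjusted p = 0.00582). SPCS3, needed for the enzyme's activity, stood at 1763, 1766 and 1772 scaled reads in EV vehicle, 1200, 1253 and 1021 in EV doxycycline, 1266, 1668 and 1531 in TFEB vehicle, and 1518, 1765 and 1891 in TFEB doxycycline. It fell in the EV line (-0.61, SE 0.13, adjusted p = 0.00542) and was not called in the TFEB line (0.22, adjusted p = 0.187). SPCS1 changed by -0.14 and -0.16 (SE 0.15 each).

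In ERAD the 3 derlins, membrane proteins of the retrotranslocation machinery, moved apart. DERL3 stood at 813, 1082 and 860 scaled reads in EV vehicle, 356, 500 and 290 in EV doxycycline, 842, 1005 and 845 in TFEB vehicle, and 167, 135 and 120 in TFEB doxycycline. The vehicle groups overlapped, EV doxycycline lay below them, and TFEB doxycycline lay lowest of all. The falls were -2.68 (SE 0.19, adjusted p = 8.94e-09) in the TFEB line and -1.29 (SE 0.19, adjusted p = 0.000449) in the EV line. DERL1 stood at 386, 297 and 290 in EV vehicle, 315, 275 and 227 in EV doxycycline, 351, 336 and 245 in TFEB vehicle, and 593, 503 and 436 in TFEB doxycycline. It rose by 0.72 (SE 0.18, adjusted p = 0.00522), with TFEB doxycycline above every control. DERL2 changed by 0.03 in the TFEB line and 0.02 in the EV line (SE 0.24 each).

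Of the other ERAD genes, SEL1L, HERPUD1 and EDEM1 fell in the EV line and none rose in the TFEB line under each scaling. SEL1L, the scaffold of the HRD1 ligase, changed by 0.56 (SE 0.12, adjusted p = 0.00151) there on the expressed-gene scale and by 1.31 (SE 0.56, adjusted p = 0.0911) on the deposited one. HERPUD1, which recruits substrates to that ligase, changed by 0.44 (SE 0.18, adjusted p = 0.0617), and EDEM1, a mannose-trimming factor that marks glycoproteins for disposal, by 0.31 (SE 0.14, adjusted p = 0.0959). SYVN1, the ligase HRD1, changed by -0.19 in the TFEB line and -0.29 in the EV line (SE 0.17 each), and neither was called on the expressed-gene scale.

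Several of these rises rested on single libraries on the deposited scale. With either replicate 1 of TFEB vehicle or replicate 2 of TFEB doxycycline left out, ATF6, HSPA5, DNAJC3, SPCS2 and DERL1 were no longer called there, while DNAJB9, SEC61B, SEC61G and DERL3 were called with each of the 12 libraries left out. On the expressed-gene scale the calls of these 9 genes held throughout.

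Taking both responses on the expressed-gene scale, the 36 genes fell into 6 patterns. The share of all genes in each pattern was not computed, so the counts describe the members alone. Of expressed genes, 17.5% were called lower and 20.9% higher in the EV line on that scale. In the TFEB line 33.2% were called lower and 34.4% higher. DNAJC3, HSPA5, P4HB, SEC61A1, SEL1L and SSR3 were called lower with doxycycline in the EV line and higher in the TFEB line. ATF6, DERL1, DNAJB11, DNAJB9, SEC61B, SEC61G and SPCS2 were called higher in the TFEB line and not called in the EV line. A further 13 were called lower in the EV line alone, 4 (DERL3, MANF, PDIA3 and PDIA4) lower in both, CRELD2 lower in the TFEB line alone, and 5 (DERL2, EIF2AK3, HSP90B1, SPCS1 and SYVN1) in neither.

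The difference between the responses was tested as the interaction of vector and doxycycline. It was positive and called under each scaling for 24 of the 36, against 10.8% of tested and 30.6% of expressed genes, and 0 were called lower under each, against 6.15% and 0.0686%. On the expressed-gene scale it was largest for SEC61G (2.28, SE 0.25), SEC61B (2.03, SE 0.41), HSPA5 (1.97, SE 0.22), P4HB (1.88, SE 0.27) and DNAJB9 (1.84, SE 0.28). It was negative for CRELD2 (-1.43, SE 0.26, adjusted p = 0.000514) and DERL3 (-1.39, SE 0.27, adjusted p = 0.000832) on that scale, and 0.60 and 0.65 on the deposited one, where neither was called. For EIF2AK3 (0.01, SE 0.28) and DERL2 (0.01, SE 0.34) the responses differed by less than their error.

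**Figure D4:**
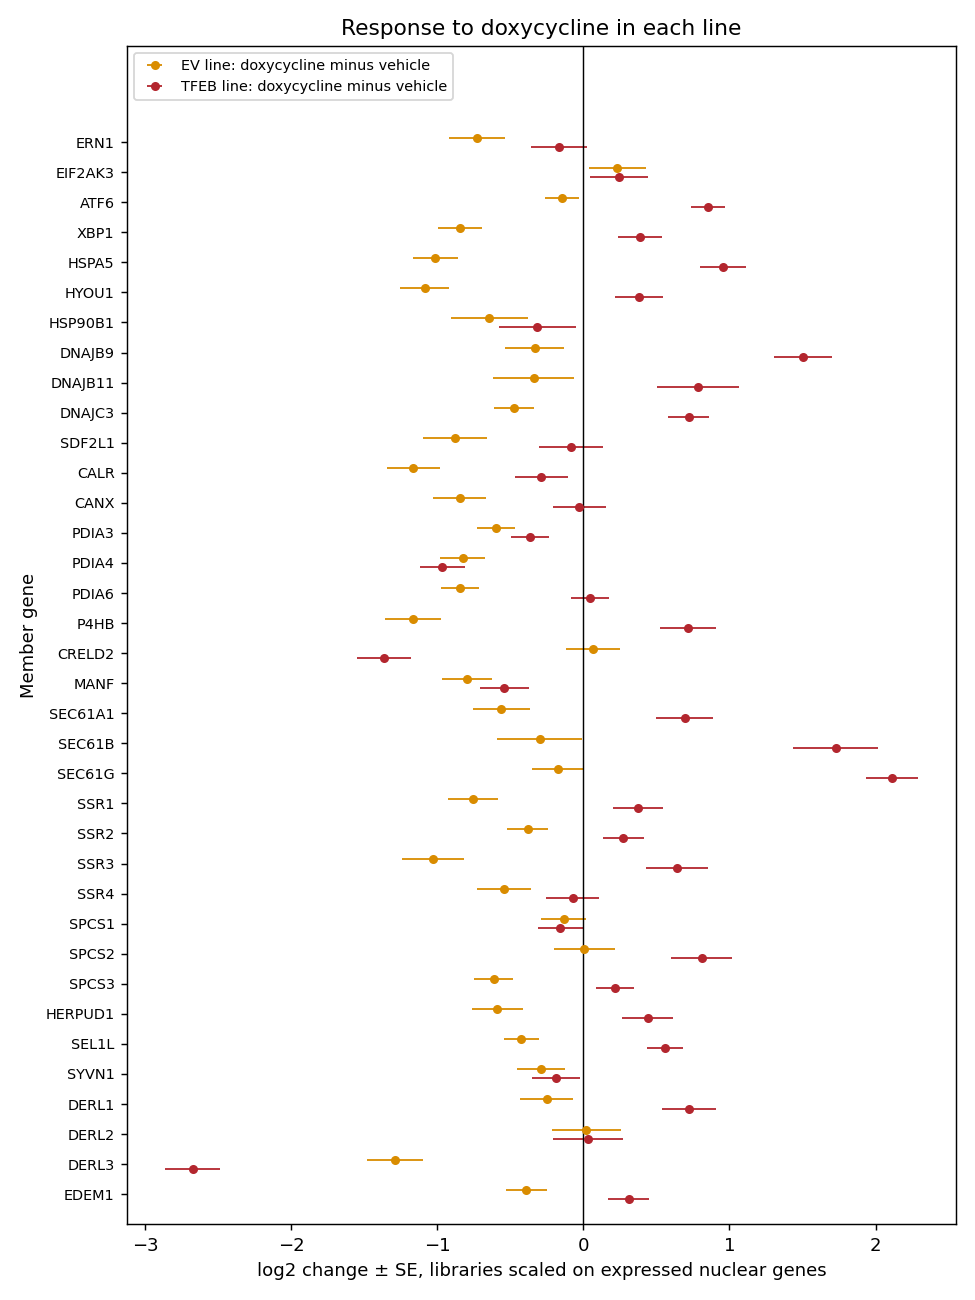
Log2 change ± SE (limma, libraries scaled on expressed nuclear genes) of each of the 36 genes with doxycycline in the EV line (orange) and in the TFEB line (red). For most genes the red point lies to the right of the orange one, while for CRELD2, DERL3, PDIA4 and SPCS1 it lies to the left.

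With doxycycline in both lines, TFEB cells exceeded EV cells for 26 of the 36 genes under each scaling, against 13.3% of tested and 33.9% of expressed genes, and were lower for 0, against 5.37% and 0.686%. The deposited scale gave 33 higher and 0 lower (27.2% and 5.37% of tested, 55.8% and 0.686% of expressed genes). Scaling on expressed genes gave 26 higher and 2 lower (14.2% and 57.6% of tested, 36.4% and 35.4% of expressed genes), the 2 being CRELD2 (-1.30, SE 0.18) and DERL3 (-1.41, SE 0.19). SEC61B (2.08), SEC61G (2.06), HSPA5 (1.99), P4HB (1.94) and DNAJB9 (1.89) led the higher ones. This comparison shares its EV doxycycline libraries with the EV response, so the low values there enter both.

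Against EV vehicle, TFEB doxycycline was higher under each scaling for 3 genes, SEC61G (1.88, SE 0.18), SEC61B (1.78, SE 0.29) and DNAJB9 (1.56, SE 0.20), and lower for 2, DERL3 (-2.70, SE 0.19) and CRELD2 (-1.23, SE 0.18), all on the expressed-gene scale. The background was 9.83% higher and 6.91% lower of tested genes, and 17.5% and 9.99% of expressed genes. The same counts, 3 and 2, came from the deposited scale (12.2% and 8.51% of tested, 17.6% and 9.99% of expressed genes). Scaling on expressed genes gave 12 higher and 4 lower (15.9% and 16.2% of tested, 34.6% and 33.3% of expressed genes). The deposited-scale CRELD2 call (adjusted p = 0.0452) was lost in 8 of the 12 fits that left out 1 library, among them those without any 1 of the EV vehicle libraries.

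SEC61B, SEC61G and DNAJB9 were therefore the 3 members higher against each of the 3 control groups under each scaling, where 7.45% of tested genes were, and 0 members were lower against each, where 1.05% were. With libraries scaled on expressed genes 11 were higher, against 11.6% of tested genes. HSPA5, SEC61A1, SEL1L, DNAJB11, DNAJC3, ATF6, DERL1 and P4HB were the ones added. CRELD2 and DERL3 were lower, against 13.8% of tested genes. No share of expressed genes was computed for the rule over 3 controls. Against TFEB vehicle, EV doxycycline and EV vehicle singly, 34.4%, 36.4% and 34.6% of expressed genes were called higher on that scale. The shares called lower were 33.2%, 35.4% and 33.3%. In TFEB vehicle against EV vehicle, the comparison of the lines before induction, 0 of the 36 genes and 0% of tested genes were called by limma on either scale, and edgeR and DESeq2 called 0 members. At an unadjusted p below 0.05, 0 members were higher and 2 lower on the deposited scale, and 0 and 0 on the expressed-gene scale.

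Ratios of reads between 2 genes of the same library do not depend on how libraries are scaled. The log2 ratio of DERL3 to DERL1 was 1.50 ± 0.40 with vehicle and 0.46 ± 0.36 with doxycycline in the EV line, against 1.54 ± 0.26 and -1.86 ± 0.03 in the TFEB line (SD, n = 3 in each group), and TFEB doxycycline did not overlap any control. The ratio of SEC61G to SEC61A1 averaged -4.11, -3.72, -4.27 and -2.84 in the same order, again with TFEB doxycycline apart. SEC61B to SEC61A1 overlapped between groups, with means of -3.68, -3.41, -3.54 and -2.50.

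Chaperone ratios to HSPA5 moved likewise. HSP90B1 to HSPA5 averaged 0.29, 0.66, 0.21 and -1.06, and SDF2L1 to HSPA5 -5.03, -4.90, -4.96 and -6.00, both lowest in TFEB doxycycline without overlap. DNAJB9 to HSPA5 averaged -5.44 and -5.40 with vehicle and -4.76 and -4.85 with doxycycline, so it was higher with the drug in both lines. HERPUD1 to SEL1L lay between -1.48 and -0.87 in all 12 libraries. It overlapped between the TFEB groups and was lower with doxycycline in the EV line without overlap, at means of -1.12 and -1.28.

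Other genes of the pathway, 115 in 8 lists, were counted by the same rule. In EV doxycycline 25 of the 115 fell and 0 rose, and in TFEB doxycycline 35 rose and 2 fell against TFEB vehicle, where the shares of expressed genes were 17.5% and 0.37% for the first comparison and 29.2% and 3.51% for the second. The 7 genes listed as outputs of the EIF2AK3 arm had 6 members that rose in TFEB doxycycline. The name of the list does not show that this kinase acted on them, since kinase activity was not measured. PPP1R15A, which reverses the translational block, rose by 3.82 (SE 0.20), DDIT3 (CHOP), a transcription factor of prolonged stress, by 3.22 (SE 0.17), TRIB3 by 2.11 (SE 0.29), ATF3 by 1.70 (SE 0.22), ASNS by 1.54 (SE 0.16) and CHAC1 by 1.06 (SE 0.26). ATF4 changed by 0.70 (SE 0.16, adjusted p = 0.00199) on the expressed-gene scale and was not called on the deposited one (adjusted p = 0.0725). In the EV line 4 of the 7 fell, TRIB3 (-1.34), DDIT3 (-0.94), ASNS (-0.88) and ATF4 (-0.49).

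The counts of the other lists in the TFEB line are again those under each scaling. By that rule 12.6% of tested and 29.2% of expressed genes rose, and 4.42% and 3.51% fell. The genes named in these lists are among those that rose. The membrane complex and tail-anchor insertion factors gave 7 of 16 higher and 1 lower, led by CAMLG (1.33) and ASNA1 (1.30), a receptor and the ATPase of tail-anchor insertion. Degradation factors gave 6 of 19 higher, led by NPLOC4 (1.67) and FAF2 (1.29), which work with the p97 ATPase. Retrieval and exit factors gave 5 of 17 higher and 1 lower, with SEC24A (2.03), a COPII coat subunit, and KDELR2 (1.16), a receptor for escaped luminal proteins. The gene of this list that fell changed by -1.75 on the expressed-gene scale. Sensor regulators gave 4 of 10, with BCAP31 (2.37) and CREB3L2 (1.89), and targeting factors 3 of 16, with SRP54 (1.38) and SEC62 (0.98). Glycosylation gave 2 of 12, STT3B (1.55) and DAD1 (1.47) of the oligosaccharyltransferase, and other folding and redox enzymes 2 of 18, QSOX1 (1.70) and DNAJC10 (1.22).

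Signs of the cells and of the libraries moved with these results. The 6 promyelocyte markers were all present, and their summed deposited value lay between 63683 and 210880 in EV vehicle, 4520 and 28267 in EV doxycycline, 47579 and 92871 in TFEB vehicle, and 7466 and 10572 in TFEB doxycycline. MPO lay at 55920 to 84740 scaled reads in EV vehicle, 12130 to 27460 in EV doxycycline, 62500 to 80120 in TFEB vehicle and 3368 to 4471 in TFEB doxycycline. In scaled reads PRTN3, AZU1 and CTSG, like MPO, were lower in TFEB doxycycline than in EV doxycycline. On the deposited scale the ranges of these genes overlapped between the doxycycline groups. CTSG lay there at 101 to 334 in EV doxycycline and 324 to 430 in TFEB doxycycline. ELANE was instead higher in scaled reads in TFEB doxycycline (1340 to 2285) than in EV doxycycline (467 to 1335), and both lay below the vehicle groups. CD33 lay at 648 to 775 in EV vehicle and 689 to 746 in EV doxycycline, which overlapped, and at 288 to 314 in TFEB doxycycline. MZB1, a plasma-cell marker that encodes a partner of HSP90B1, lay at 289 to 407, 115 to 151, 319 to 477 and 31.97 to 43.3 scaled reads in the group order given for MPO. As for DERL3, the vehicle groups overlapped, EV doxycycline lay below them and TFEB doxycycline lay lowest. The B-cell markers MS4A1 and CD79B were at most 53.7 and 28.7 on the deposited scale. The summed values of the T and NK cell, erythroid, epithelial and fibroblast lists, 5 markers each, were at most 403 in any library. The part of these shifts in the results was not tested. In bulk RNA, fewer cells of a type and less RNA per cell cannot be told apart.

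Mitochondrial genes took 23.8% of reads with vehicle and 30.4% with doxycycline in the EV line, and 26.6% and 16.0% in the TFEB line. Nuclear genes whose mean was under 200, many of them near background, took 6.19% and 12.5% in the EV line and 8.31% and 5.37% in the TFEB line. Both means were highest in EV doxycycline, where the members took their smallest share, but the libraries overlapped those of TFEB vehicle. The mitochondrial share was 26.2, 31.8 and 33.1% in EV doxycycline and 26.6, 23.8 and 29.4% in TFEB vehicle. The share of genes under 200 was 8.43, 10.9 and 18.2% in EV doxycycline and 11.1, 7.19 and 6.62% in TFEB vehicle. The part of these shares in the fall was not tested. Members at about 100 scaled reads lie closest to that background; among them SEC61G (-0.17), DNAJB9 (-0.33) and DERL2 (0.02) were not called in the EV line on the expressed-gene scale, while SDF2L1 fell.

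**Figure D5:**
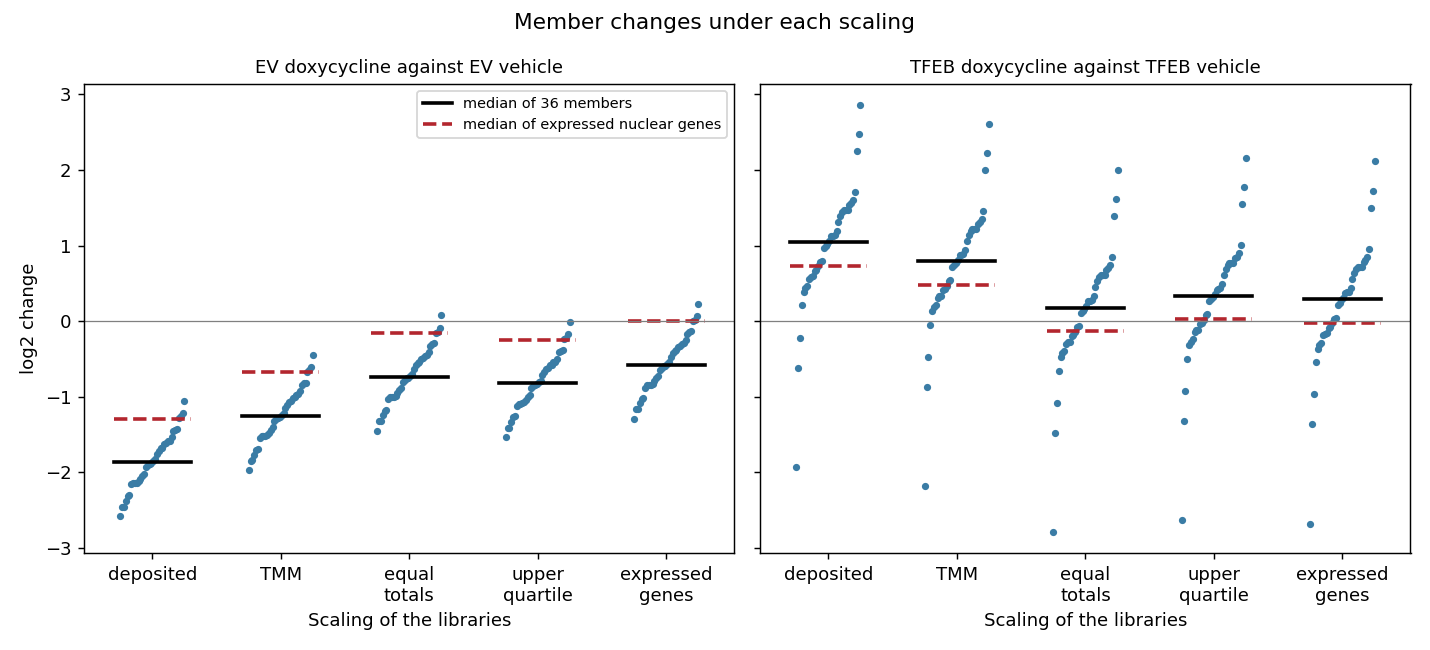
Log2 change of each of the 36 genes (points, ordered within a column) in EV doxycycline against EV vehicle (left) and TFEB doxycycline against TFEB vehicle (right) under 5 scalings of the libraries. Solid lines are the median of the 36 genes and dashed lines that of expressed nuclear genes. The former lies below the latter in the EV panel and above it in the TFEB panel. A scaling multiplies all genes of a library by the same factor, so the distance between the lines must stay nearly the same in every column.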

How the data were processed

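The 12 RNA-seq libraries of HL60 cells form 4 groups of 3, assigned from the labels' titles. For every gene the deposited table gives each library's normalized signal. Within a library all values were whole multiples of 1 step (100% at a tolerance of 0.01), so the table was taken as read counts that the authors had scaled by library. For replicate 2 of EV vehicle and replicate 3 of TFEB vehicle this step was within 1% of 1, where recovered reads cannot be told from rounded values. STAR 2.5.3a and HTSeq 0.6.1 were used, per the submitters' processing notes. Not given in the sources used here are the genome build, annotation and strand setting, and genes that overlap an antisense gene or have near-identical copies are therefore uncertain.

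The 23128 genes with a mean of at least 10 were tested with limma 3.58.1 (R 4.3.3) after a log2 transform of the deposited value plus 1, with 1 mean per group, a variance trend, two-sided tests and Benjamini-Hochberg adjustment at 0.05. The values are not raw counts, so count models on the recovered reads (DESeq2 1.42.0, edgeR 4.0.16) served as alternatives. Libraries were also scaled by TMM, to equal upper quartiles, to equal totals, and on expressed genes, by the median ratio over 7288 nuclear genes whose mean was 200 or more and which had no zero. Further alternatives were a pseudocount of 5, no filter or a minimum of 50, no trend, a replicate block and each library left out. On the expressed-gene scale, the fits with a library left out and the block were chosen after seeing the data. The procedure was tested on simulated data.

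The members, lists and comparisons were chosen with earlier results of these data known. In each role group, values by library are given for up to 3 members with the largest change in the TFEB line among those called under each scaling, filled up to 2 by the highest mean, and for HSPA5, XBP1, DNAJB9 and SEC61B. DNAJB9 and SEC61B were included because an earlier report on these data named them. Up to 2 members of each other list are named by the largest change in the TFEB line among those that rose under each scaling. Genes of these lists that fell are counted and not named. PDIA4, the other members given by value and all outputs of the EIF2AK3 arm were named after their values were seen. Promoter sequences are from RefSeq (GRCh38.p14). Between replicates the chi-square per degree of freedom was 10.4 to 35.3, above counting error.

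A marker gene of the lists is not reported here.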

Additional observations from a re-analysis of the deposited data

Results flagged for a closer look

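The response of a gene to doxycycline differed between the TFEB line and the EV line, by the limma interaction test over all tested genes, for 33 of the 36 genes on the deposited scale and for 24 of them under each of the 5 scalings. By that test 29.2% of tested and 62.6% of expressed genes were called higher on the deposited scale. Under each scaling the shares were 10.8% and 30.6%. The values below are the TFEB response minus the EV response, in log2 on the deposited scale, for those 24 members. In the channel and its TRAP complex the differences were 4.31 for SEC61G, 4.05 for SEC61B, 3.71 for SSR3, 3.29 for SEC61A1, 3.17 for SSR1 and 2.69 for SSR2. Among chaperones they were 4.01 for HSPA5, 3.86 for DNAJB9, 3.51 for HYOU1, 3.23 for DNAJC3, 3.16 for DNAJB11 and 2.81 for SDF2L1. The isomerase and lectin group gave 3.93 for P4HB, 2.93 for PDIA6, 2.92 for CALR and 2.86 for CANX. XBP1 gave 3.27 and ATF6 3.04. In ERAD the values were 3.07 for HERPUD1, 3.02 for SEL1L, 3.005 for DERL1 and 2.74 for EDEM1, and signal peptidase gave 2.87 for SPCS3 and 2.84 for SPCS2. The median of expressed nuclear genes on this scale was 2.04, and these values include it.

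DERL3 (-1.39) and CRELD2 (-1.43) differed in the opposite direction with libraries scaled on expressed genes, and not on the deposited scale.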

How the results depend on the processing

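The count of members called depended on how libraries were scaled. Beside 9 called higher in TFEB doxycycline against TFEB vehicle on the deposited scale, TMM gave 15 and DESeq2 on recovered reads 14; beside 1 called lower, TMM gave 2, equal totals 5, equal upper quartiles 3 and expressed genes 5. Against EV vehicle the 3 higher became 9 (TMM), 5 (equal totals), 11 (upper quartiles) and 12 (expressed genes), and the 2 lower became 5 (equal totals) and 4 (expressed genes). Against each of the 3 controls the 3 higher became 9, 5, 11 and 11 in that order. The 0 lower became 2 under equal totals, upper quartiles and expressed genes in TFEB doxycycline against EV doxycycline, in the interaction, and against each of the 3 controls. The 35 lower in EV doxycycline became 19 without a filter on low values and 23 on expressed genes. The cause was not tested.

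With 1 library left out, the counts ran from 3 to 16 (higher) in TFEB doxycycline against TFEB vehicle, from 1 to 2 lower against EV vehicle, and from 2 to 36 lower in EV doxycycline on the deposited scale and 15 to 24 on the expressed-gene scale. On that scale the 5 lower in TFEB doxycycline against TFEB vehicle ran from 3 to 5. The lowest counts in EV doxycycline came without EV vehicle replicate 2. Counts that left 2 libraries in a group assume that these vary like the others.

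In TFEB doxycycline against TFEB vehicle 12 of the 36 log2 changes had another sign under at least 1 other scaling than on the deposited scale. ERN1, HSP90B1, SDF2L1, CALR, CANX, PDIA6, SSR4, SPCS1, SYVN1 and DERL2 were called under none of the 5 scalings, PDIA3 was -0.48 under equal totals and -0.37 on expressed genes, and MANF was -0.65 and -0.54. In EV doxycycline against EV vehicle CRELD2, DERL2, EIF2AK3 and SPCS2 changed sign. In the interaction CRELD2 was -1.39 under equal totals, -1.15 under upper quartiles and -1.43 on expressed genes, DERL3 -1.34, -1.10 and -1.39, and SPCS1 -0.023 on expressed genes.

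Same-numbered libraries of different groups correlated between -0.23 and 0.72 in their deviations on the expressed-gene scale (18 pairs, mean 0.29). Differently numbered ones correlated between -0.70 and 0.61 (36 pairs, mean -0.15). These ranges overlapped, and the main fits did not take the numbers to pair libraries. As a hint from the data, libraries correlated best with one of their own number, except EV doxycycline replicate 1 and TFEB doxycycline replicate 2. A replicate block gave 11 higher and 1 lower in TFEB doxycycline against TFEB vehicle, 36 lower in EV doxycycline, and moved no count by more than 1.5 times. Depth limited the genes with few reads, since the shallowest library had 27 reads of SDF2L1.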
